A study of Mus musculus with 10 samples.

Results

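The enzymes that hydroxylate and crosslink collagen were followed in mouse femur after 24 h of hindlimb unloading. The group comprised 10 genes: Lox, Loxl1, Loxl2, Loxl3, Loxl4, Plod1, Plod2, Plod3, P4ha1 and P4ha2. They were found on the array by gene name or by the transcript accession of the probe. This gave 10 of 27670 distinct names and 15 of 41174 gene probes, and all 15 were tested among 38629. The distinct names include those of 8455 probes that matched no listed gene and kept the name given by the array. Plod3, P4ha1, P4ha2, Loxl2 and Loxl4 had 2 probes each and the other genes had 1. Total RNA came from the femurs of male ICR mice, an outbred strain, aged 6 months, with 1 Agilent one-colour array per animal. The 5 control mice moved freely in their cages, and the 5 unloaded mice hung by the tail in a head-down tilt, so that the hind legs bore no weight, until the bones were taken. The labels describe the treatment as unloading of the hindlimb muscles and name femur bone as the tissue, and unloaded against control at 24 h is the single comparison. Each array is a separate animal, per the labels.

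Fibrillar collagen is modified in a fixed order. Inside the endoplasmic reticulum, prolyl 4-hydroxylases convert prolines of the collagen chain to hydroxyproline, which stabilises the triple helix, and lysyl hydroxylases convert lysines to hydroxylysine. After secretion, the copper-dependent lysyl oxidases turn lysines and hydroxylysines into aldehydes, which react into the covalent crosslinks between molecules that give bone matrix and tendon their strength. Hydroxylases of this kind use oxygen and iron, and several of their genes are known targets of the hypoxia-inducible transcription factor.

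Signals are given as log2 of the spot intensity over the array's 75th percentile. A difference is the mean of unloaded animals minus the mean of controls on that scale, a positive value being higher in unloaded femur. Because each probe binds with its own strength, signals are compared between animals for the same probe and not between genes. The arrays lay on 3 slides. Slide 1 held 4 controls, slide 2 held control 5 with unloaded animals 1 to 3, and slide 3 held unloaded animals 4 and 5, so that slide and group largely coincide. Per array, 89.8% to 95.5% of gene spots exceeded the scanner software's background limit, and all 15 enzyme probes did so on all arrays. The array of unloaded 5 had a median correlation of 0.973 with the other arrays over all probes, against 0.985 to 0.988 for the rest. Of the markers of bone, 6 of 6 osteoblast, 5 of 5 osteocyte and 5 of 5 osteoclast markers passed the detection filter. So did 8 of 8 cartilage and 7 of 7 skeletal muscle markers, and 38629 of all 41174 gene probes. With so high a share over all probes, passing the filter does not show that a cell type was present.

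Across the enzymes, no gene passed the test after 24 h of unloading. None of the 15 probes was called by limma at an adjusted p below 0.05, where 0.00259% of all tested probes (1 of 38629) was called, and the smallest adjusted p of the group was 0.251 (Loxl4). At an unadjusted p below 0.05 limma gave 3 of the 15 probes (20%), beside 16.1% of all probes. All 3 were higher, where 10.2% of all probes were higher and 5.92% lower at that p. The difference was below 0 for 8 of the 15 probes (53.3%) and for 37.4% of all probes. Within the family the point estimates ran in opposite ways: Lox, Loxl2, Plod2 and P4ha1 had differences between -0.65 and -0.31, and Loxl3, Loxl4 and Plod1 had differences between 0.15 and 0.28. Over the 10 genes, each at its brightest probe, the median difference was -0.080, with 4 positive and 6 negative, while all 18955 genes tested had a median of 0.054. When a gene's probes were averaged instead, the median of the group was 0.019, so the median has no settled sign. In RNA of bone tissue, fewer cells of a type and less RNA per cell cannot be told apart for any of these values.

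**Figure D1:**
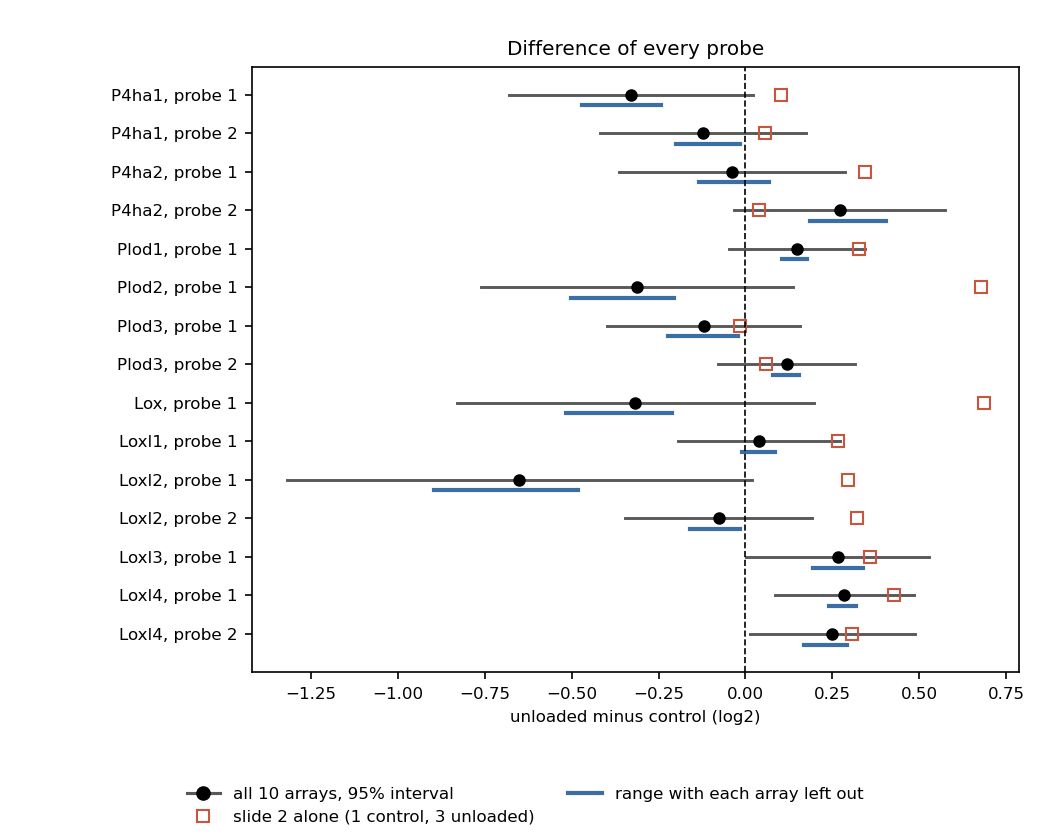
Difference of every probe of the 10 genes, unloaded minus control in log2 units on the x axis; black points with grey lines are the estimate over all arrays and its 95% interval, blue bars the range when each array is left out in turn, and open red squares the value on slide 2 alone. The intervals of the 2 Loxl4 probes and of Loxl3 lie above 0. On slide 2 every probe except the brighter Plod3 probe (-0.016) lies on the positive side, those of Lox, Loxl2, Plod2 and P4ha1 included.

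P4ha1 and P4ha2 encode alternative catalytic alpha subunits of collagen prolyl 4-hydroxylase. P4ha1, the main subunit in most tissues, had a lower mean in unloaded femur, but the groups overlapped. Its brighter probe read 0.70, 1.18, 1.03, 0.72 and 0.52 in controls 1 to 5 and 0.92, 0.33, 0.44 and 0.30 in unloaded animals 2 to 5. The spot of unloaded 1 was marked as an outlier by the scanner software and left out. Unloaded 3, 4 and 5 lay below every control, and unloaded 2 lay among the higher controls. The means were 0.83 ± 0.27 (SD, n = 5) and 0.50 ± 0.29 (SD, n = 4), a difference of -0.33 with a 95% interval from -0.68 to 0.021 (limma adjusted p = 0.328). With the marked spot kept the difference was -0.22, and on slide 2 alone, with 1 control and 2 unloaded animals, it was 0.10. The dimmer P4ha1 probe had a difference of -0.12, with an interval from -0.42 to 0.17, and 0.057 on slide 2. It was -0.016 without unloaded 4, its lowest animal, -0.064 without control 2 and -0.20 without control 1.

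P4ha2, the subunit prominent in cartilage and bone cells, differed little at its brighter probe. Controls 1 to 5 read 0.81, 1.33, 1.02, 0.87 and 0.53 and unloaded animals 1 to 5 read 0.69, 1.14, 0.79, 0.64 and 1.11. The unloaded values fell inside the range of the controls. The difference was -0.038, with an interval from -0.36 to 0.29 (limma adjusted p = 0.903), and its sign turned without control 2 (0.067), unloaded 1 (0.0079) or unloaded 4 (0.021), and it was 0.34 on slide 2. The dimmer P4ha2 probe had the opposite sign, at 0.27, with an interval from -0.032 to 0.57, and 0.040 on slide 2. Under normexp background correction it was 0.063. That probe was designed on another cDNA and read -3.39 to -3.14 in controls and -3.53 to -2.66 in unloaded animals, with unloaded 1, 3, 4 and 5 above all controls and unloaded 2 below them.

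The promoters of both prolyl hydroxylase genes hold the core of the hypoxia response element, the sequence bound by the hypoxia-inducible factor, and stretches with the cores are shown because these genes are textbook targets of that factor and the oxygen-responsive genes are described further on. The cores searched were ACGTG and GCGTG, on either strand (CACGT and CACGC when read on the strand of the gene); ACGTG is also part of the E-box CACGTG. The RefSeq promoter windows of assembly GRCm38.p6, which run from 250 bases before to 50 after a start, matched 5 of the 10 genes (Loxl4, P4ha1, P4ha2, Plod1 and Plod3). At least 1 core was found in all 5 windows and in 43.8% of the 32851 windows of the table, and ACGTG in 3 of 5 and in 19.6%. The windows of the oxygen-responsive genes held a core in 18 of 21, or 85.7%. Both cores contain CG, and no share was taken over windows of like base content, so these shares do not show an enrichment. The stretches lie before the start, run 5′ to 3′ on the strand of the gene and have the cores in capitals. Loxl4 is added as the enzyme gene whose groups did not overlap.
P4ha1, chr10:59323123-59323184, plus strand: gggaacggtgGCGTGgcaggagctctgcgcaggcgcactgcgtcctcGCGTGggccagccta
P4ha2, chr11:54100807-54100869, plus strand: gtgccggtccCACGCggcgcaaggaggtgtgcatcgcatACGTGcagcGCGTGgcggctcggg
Loxl4, chr19:42612954-42612978, minus strand: cgtcacccccCACGCtccccgcagc
The P4ha2 stretch holds 3 cores within 63 bases, the P4ha1 stretch 2 and the Loxl4 stretch 1. The stretches leave out some cores of the windows. P4ha1 has a further ACGTG, read as CACGT, at position -16 from the start of its window's transcript, and P4ha2 has a further ACGTG at position 11 after its start. That P4ha1 start lies inside the gene, which is listed from chr10:59323197, so the core at -16 lies inside the gene too. A match describes these letters only.

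Plod1, Plod2 and Plod3 encode the lysyl hydroxylases. Plod2, whose enzyme hydroxylates the telopeptide lysines that form the most stable crosslinks, had the widest spread of the 3. Controls 1 to 5 read 1.59, 1.66, 1.48, 1.56 and 0.63 and unloaded animals 1 to 5 read 1.57, 1.08, 1.28, 0.65 and 0.79. The first 4 controls lay close together, control 5 lay far below them, and the unloaded animals spread over the whole interval between. The difference was -0.31, with an interval from -0.76 to 0.14 (limma adjusted p = 0.432). It was -0.50 without control 5 and -0.21 without unloaded 4, and on slide 2, where control 5 is the only control, it was 0.68.

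Plod1, whose enzyme hydroxylates lysines within the helix, was tightly measured. Controls 1 to 5 read -0.021, -0.025, -0.077, -0.075 and -0.26 and unloaded animals 1 to 5 read -0.054, 0.13, 0.11, 0.14 and -0.053. Unloaded 2, 3 and 4 lay above every control, while unloaded 1 and 5 lay among them. The difference was 0.15, with an interval from -0.046 to 0.34 (limma adjusted p = 0.396), and 0.33 on slide 2.

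Plod3 encodes an enzyme that hydroxylates lysine and also adds sugars to hydroxylysine. Its brighter probe read 1.55, 1.65, 1.61, 1.53 and 1.57 in the controls, which is the narrowest control range of the 10 genes (SD 0.047), and 1.41, 1.87, 1.38, 1.58 and 1.06 in unloaded animals 1 to 5 (SD 0.30). Unloaded 2 stood above and unloaded 1, 3 and 5 below all controls. The difference was -0.12, with an interval from -0.40 to 0.16 (limma adjusted p = 0.616), -0.016 on slide 2, -0.020 without unloaded 5 and -0.22 without unloaded 2. The dimmer Plod3 probe had the opposite sign, at 0.12, with an interval from -0.078 to 0.32, 0.060 on slide 2 and 0.078 without control 3.

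**Figure D2:**
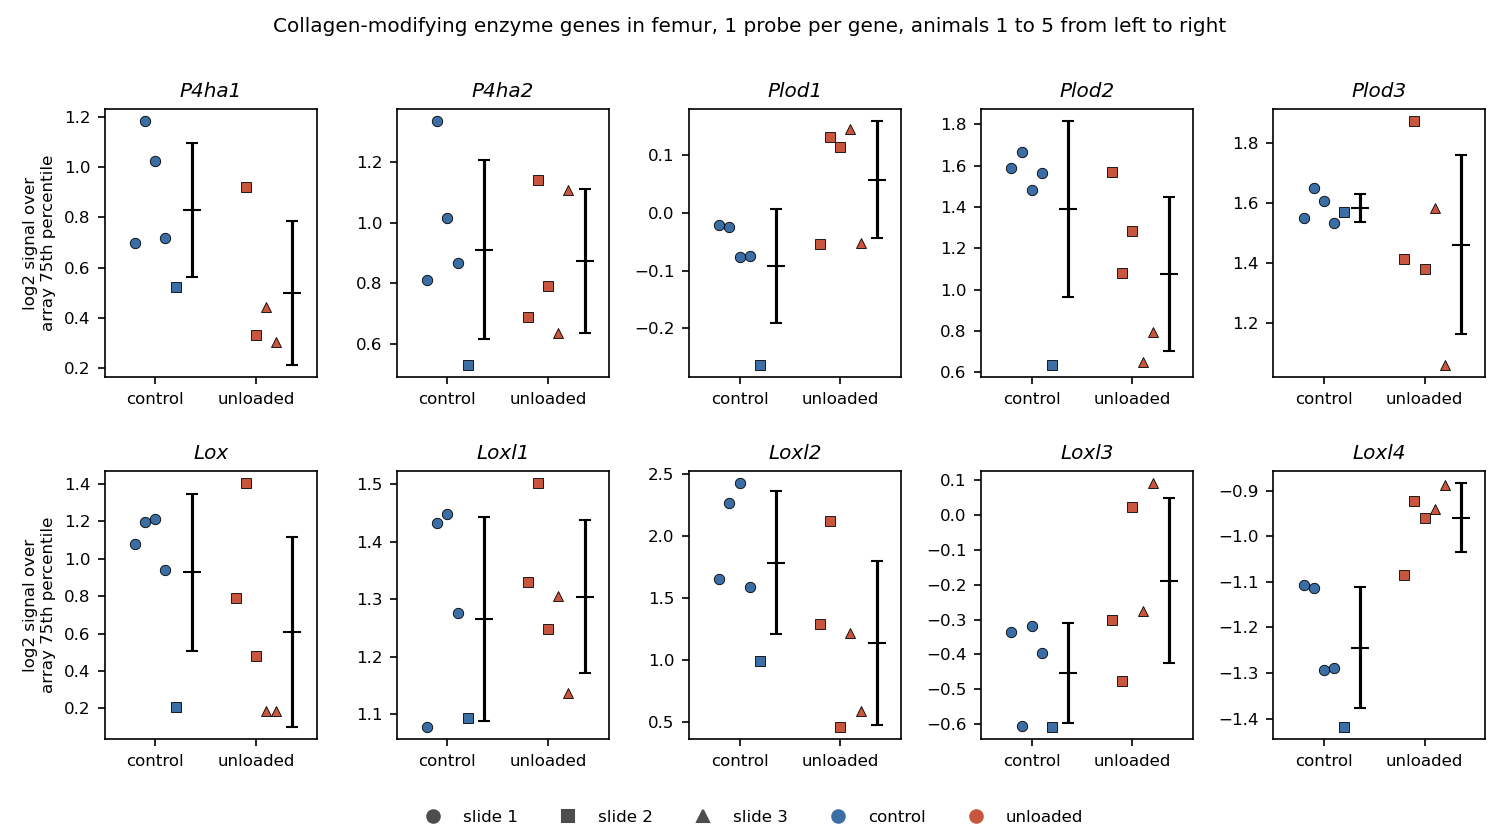
Signal of the 10 genes, 1 probe each, in log2 units over the array's 75th percentile on the y axis, with a scale of its own in each panel; points are animals 1 to 5 of a group from left to right, shapes mark the slide, and bars give the mean and SD of the group (n = 5, and n = 4 for unloaded P4ha1). Loxl4 is the panel without overlap between groups, and control 5 is the lowest control in 8 of the 10 panels.

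Among the lysyl oxidases, Lox and Loxl2 had lower means and Loxl3 and Loxl4 higher means in unloaded femur, and none was called. Lox, the founding member of the family and the main crosslinking enzyme of bone collagen, read 1.08, 1.20, 1.21, 0.94 and 0.21 in controls 1 to 5 and 0.79, 1.403, 0.48, 0.19 and 0.19 in unloaded animals 1 to 5. Again 4 controls lay together and control 5 far below, at the level of unloaded 4 and 5, while unloaded 2 was the highest animal of all. The difference was -0.32, with an interval from -0.83 to 0.20 (limma adjusted p = 0.480). It was -0.50 without control 5, -0.52 without unloaded 2, -0.21 without unloaded 4 or without unloaded 5, and 0.69 on slide 2.

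Loxl2, which crosslinks collagen type IV of basement membranes and is expressed by growth plate chondrocytes, had the largest difference of the family. Its brighter probe read 1.65, 2.27, 2.43, 1.59 and 1.00 in controls 1 to 5 and 1.30, 2.12, 0.46, 1.22 and 0.59 in unloaded animals 1 to 5. Unloaded 3 and 5 lay below every control, and unloaded 2 lay near the top of the controls. The means were 1.79 ± 0.58 (SD, n = 5) and 1.14 ± 0.66 (SD, n = 5), a difference of -0.65 (1.57-fold lower) with an interval from -1.32 to 0.019 (limma adjusted p = 0.319). With each of the 10 arrays left out in turn it ran from -0.90 to -0.48, and on slide 2 it was 0.30. The dimmer Loxl2 probe read -0.71, -0.50, -0.55, -0.89 and -1.08 in controls and -0.75, -0.60, -0.92, -0.82 and -1.01 in unloaded animals, a difference of -0.076 with an interval from -0.35 to 0.19, and 0.32 on slide 2. It was -0.16 without control 5, -0.13 without unloaded 2, -0.015 without control 2, and -0.028 without control 3 or without unloaded 5. The dimmer probe put control 5 lowest and control 2 highest, over a range much narrower than that of the brighter probe. The brighter probe was designed on a predicted transcript that the RefSeq gene list does not pair with Loxl2, so its name rests on the array design.

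Loxl1, which is needed to crosslink elastin, read 1.08, 1.43, 1.45, 1.28 and 1.09 in controls and 1.33, 1.501, 1.25, 1.31 and 1.14 in unloaded animals. All unloaded animals but number 2 lay within the range of the controls. The difference was 0.039, with an interval from -0.19 to 0.27 (limma adjusted p = 0.860). It was close enough to 0 to turn negative without control 1 (-0.0081), control 5 (-0.0041) or unloaded 2 (-0.010), and under median scaling (-0.056), and it was 0.27 on slide 2.

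Loxl4, a lysyl oxidase with scavenger receptor domains, was the gene in which the groups did not overlap. Its brighter probe read -1.11, -1.11, -1.29, -1.29 and -1.42 in controls 1 to 5 and -1.09, -0.92, -0.96, -0.94 and -0.89 in unloaded animals 1 to 5. All 5 unloaded animals lay above all 5 controls, with unloaded 1 just above controls 1 and 2. The difference was 0.28 (1.22-fold higher; SE 0.093) with an interval from 0.085 to 0.48, and limma's adjusted p over all probes was 0.251. Its unadjusted p took rank 1324 among 38629 probes. Groups did not overlap for 1 of the 15 enzyme probes, or 6.67%, where 3.16% of all probes had that property, 1.51% with higher and 1.65% with lower unloaded values. The dimmer Loxl4 probe had a difference of 0.25 (interval 0.013 to 0.49, limma unadjusted p = 0.0402), with controls between -2.10 and -1.88 and unloaded animals between -1.91 and -1.41. On slide 2, where the only control was control 5, the lowest animal at both probes, the probes had 0.43 and 0.31. They were positive under every one of the 19 alternatives, between 0.14 and 0.43. As the groups of the brighter probe did not overlap, leaving out an array could not turn its sign.

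Loxl3, which is needed for normal development of palate and spine, read -0.34, -0.61, -0.32, -0.40 and -0.61 in controls and -0.30, -0.48, 0.024, -0.28 and 0.092 in unloaded animals. Unloaded 1, 3, 4 and 5 lay above every control and unloaded 2 among them. The difference was 0.27, with an interval from 0.0018 to 0.53 (limma adjusted p = 0.308). It was 0.36 on slide 2 and 0.20 without unloaded 5. Median scaling shifted probes measured on all arrays by -0.095, and Loxl3 and the brighter Loxl4 probe had positive differences of 0.17 and 0.19 under that scaling.

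Each at its brightest probe, the 4 enzymes with the largest estimates below 0 also had the 4 largest within-group SDs of the 10. The SD was 0.62 for the brighter Loxl2 probe, larger than for 99.6% of genes, beside a median of 0.19 over all genes. It was 0.47 for Lox (98.3%), 0.40 for Plod2 (96.8%) and 0.28 for P4ha1 (84.8%). The dimmer Loxl2 probe had an SD of 0.20, so the wide spread of Loxl2 rests on the probe named by the array design alone. Plod1 and Loxl4 were at the other end, with SDs of 0.10 and 0.11, larger than for 7.2% and 10% of genes. Relative to each gene's mean over 10 arrays, the average of the 10 enzymes stood at 0.059, 0.26, 0.21, 0.033 and -0.31 in controls 1 to 5 and at -0.0086, 0.24, -0.12, -0.15 and -0.21 in unloaded animals 1 to 5. Control 5 was below the mean in 9 of 10 enzymes and lowest of all animals in 5. Unloaded 2 was the highest unloaded animal in 6.

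**Figure D3:**
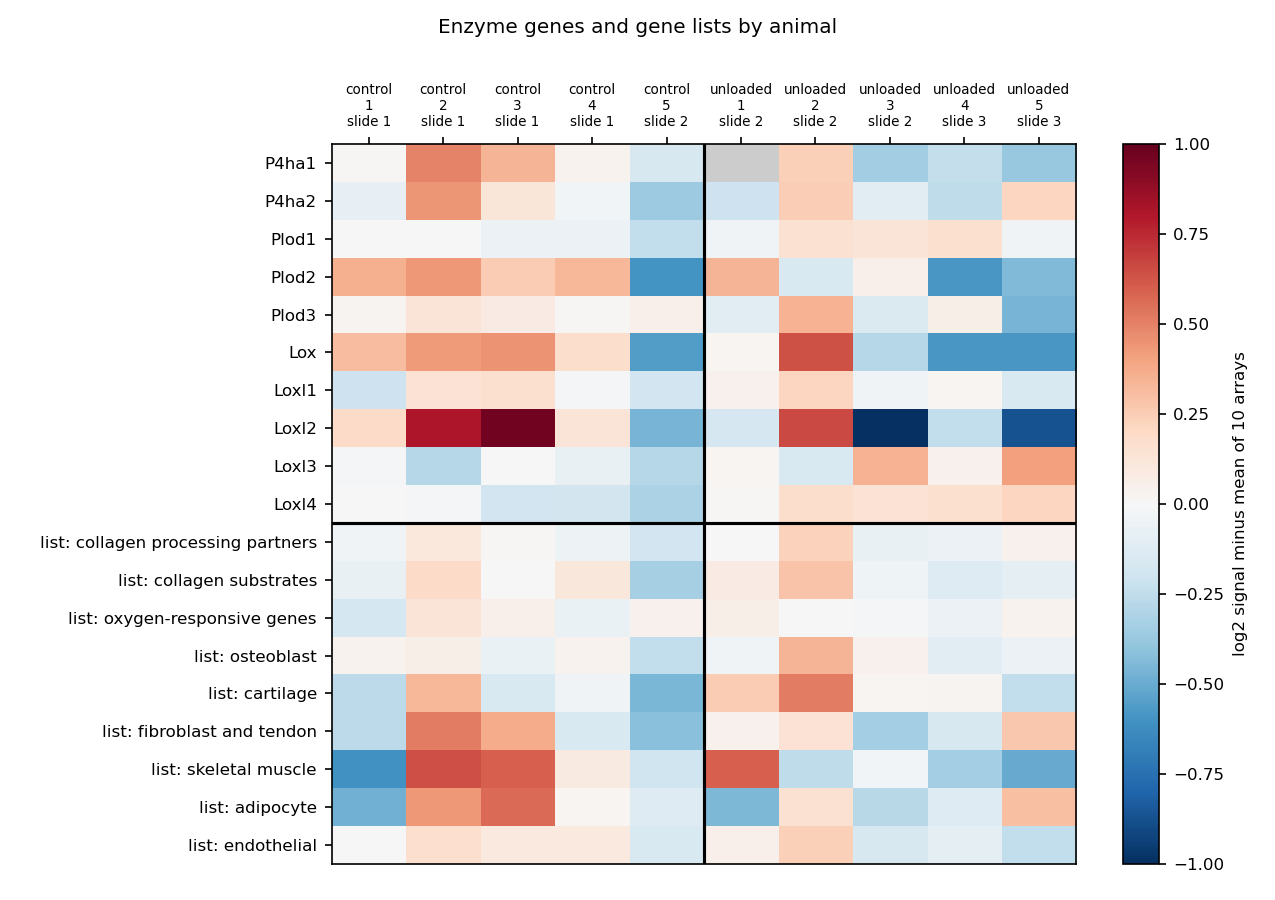
Each row is a gene, or below the black line the average of a gene list, and each column an animal with its slide; colour gives the log2 signal minus the mean of the 10 arrays, and grey is the left-out P4ha1 spot. Lox, Loxl2 and P4ha1 are high in controls 2 and 3 and in unloaded 2 and low in control 5 and unloaded 3 to 5, whereas Loxl3 shows the reverse in unloaded 3 and 5.

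The average of the collagen and elastin substrates of these enzymes stood at -0.077, 0.19, 0.0046, 0.11 and -0.33 in controls 1 to 5 and at 0.084, 0.28, -0.041, -0.13 and -0.092 in unloaded animals 1 to 5. Control 5 was lowest and unloaded 2 highest, while control 3, high for the enzymes, was near 0. Control 5 was also low for cartilage markers (-0.45), fibroblast and tendon markers (-0.42) and osteoblast markers (-0.25). It was the highest animal for B cell markers (0.24) and above 0 for erythroid (0.14), neutrophil (0.12) and T cell markers (0.037). For the remaining marker lists control 5 lay between -0.20 (skeletal muscle) and 0.019 (macrophage). As a description, the deviations of the brighter Loxl2 probe from the group means over the 10 arrays were compared with those of 18899 other genes. They were most like those of Appl2, Arpin, Mxra8, Col6a1 and Frmd6, with Pearson coefficients of 0.97 for each. The dimmer Loxl2 probe was not compared. Of the other enzymes P4ha1 came nearest (0.95 over 9 arrays), then Loxl1 (0.88), Lox (0.84) and Plod3 (0.71). Set among those 18899 genes, Loxl1 took rank 248, Lox rank 407 and Plod3 rank 1502, and P4ha1 was not ranked. Many genes outside the enzymes were thus more like the probe than these 3. P4ha2 (0.56), Plod1 (0.50), Plod2 (0.40) and Loxl4 (0.26) were less like it, and Loxl3 had a negative coefficient (-0.51). The arrays share slides, so these values describe likeness between animals and slides together.

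The 2 probes of a gene did not always tell the same story. For Loxl2 and Loxl4 both probes lay on the same side of their own mean in 8 of 10 animals, and for P4ha1 in 7 of 9. For P4ha2 and Plod3 this held in 4 of 10 animals, and the probes of each had opposite differences. A direction for P4ha2 or Plod3 therefore depends on the probe.

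**Figure D4:**
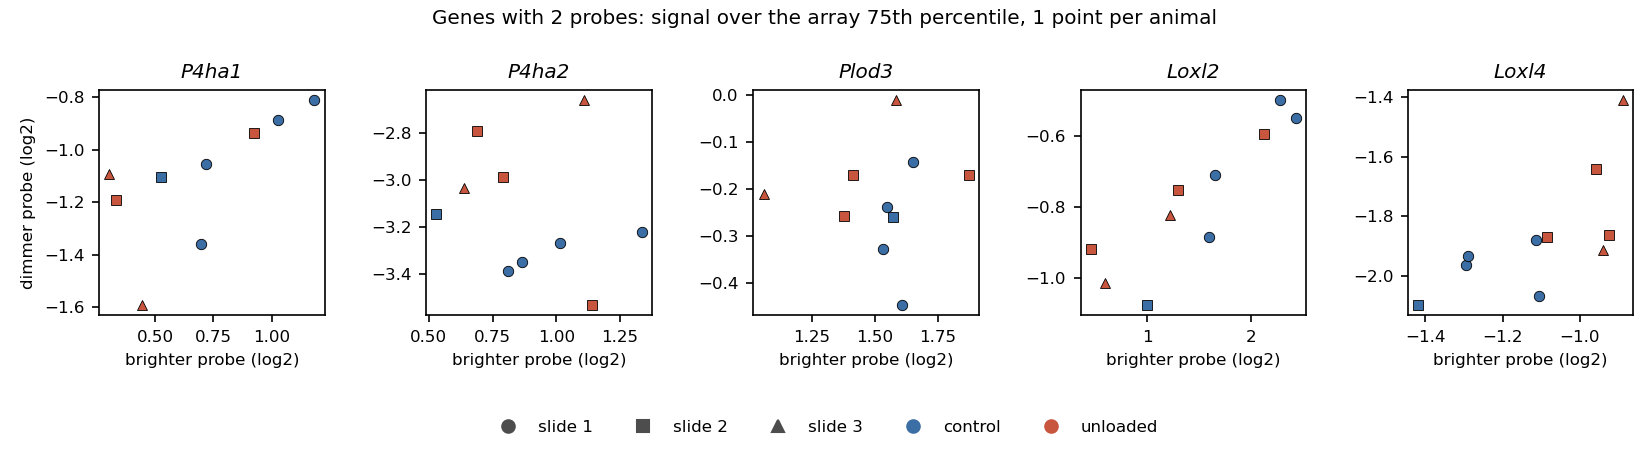
Signal of the dimmer against the brighter probe, in log2 units over the array's 75th percentile, for the 5 genes with 2 probes; each point is an animal, colour marks the group and shape the slide. The points of Loxl2 run along a rising line over a wider range on the brighter probe, and those of P4ha2 and Plod3 do not line up.

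No partner of these enzymes passed the test. The list held 28 genes for the prolyl 3-hydroxylase complex, chaperones and isomerases of the endoplasmic reticulum, glycosyltransferases, procollagen proteinases and copper supply, of which 27 were tested. Limma called 0, and 1 of the 27 had an unadjusted p below 0.05, beside 2989 of all 18955 genes. Of the differences, 17 were positive and 10 negative, with a median of 0.073 beside 0.054 for all genes. The 4 with the smallest p were positive. Efemp2, a fibulin that brings lysyl oxidase to elastic fibres, had 0.26 (interval 0.0065 to 0.51, limma adjusted p = 0.306). Fkbp9, a proline isomerase of the endoplasmic reticulum, had 0.27, and Tmem38b, an ion channel of that compartment, had 0.25, or -0.094 on slide 2; without unloaded 5 both had 0.16. P3h4, a partner of lysyl hydroxylase 1, had 0.25. P4hb, the protein disulfide isomerase that forms the beta subunit of prolyl 4-hydroxylase, had -0.027, with an interval from -0.34 to 0.29.

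The collagen and elastin substrates gave no call either. All 12 were tested, 0 were called by limma and 0 had an unadjusted p below 0.05, beside 2989 of all 18955 genes. There were 6 positive and 6 negative differences, with a median of 0.017. Col1a1, which encodes the main chain of bone collagen, had 0.078 (interval -0.093 to 0.25) and -0.017 under median scaling. Its partner chain Col1a2 had 0.18 (interval -0.0061 to 0.37, limma adjusted p = 0.320), 0.087 under median scaling and 0.056 under quantile normalization. Col2a1 and Col11a2 of cartilage had 0.37 and 0.19, and 0.91 and 0.70 on slide 2; Col11a2 had 0.13 without control 1, 0.11 without control 5 and 0.093 without unloaded 2. Col5a2, a chain that regulates fibril diameter, had -0.27, or 0.42 on slide 2, and -0.16 without unloaded 5.

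Oxygen-responsive genes had differences of both signs. Of 16 tested, 0 were called by limma and 1 had an unadjusted p below 0.05, beside 2989 of all 18955 genes. There were 9 positive and 7 negative differences, with a median of 0.015. The glucose transporter Slc2a1 had 0.31 (interval 0.066 to 0.55, limma adjusted p = 0.258). Hexokinase 2, Hk2, had -0.24, lactate dehydrogenase, Ldha, had 0.25, and the angiogenic factor Vegfa had -0.16. Without unloaded 5, Ldha had 0.15. On slide 2 Ldha had -0.064 and Vegfa 0.032.

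Markers of other cell types varied between animals within both groups. The average of 7 skeletal muscle markers ran from -0.60 to 0.64 in controls and from -0.50 to 0.60 in unloaded animals, and that of 6 fibroblast and tendon markers from -0.42 to 0.51 and from -0.34 to 0.27. Positive differences, which 11440 of all 18955 genes had, were found for 8 of 8 cartilage, 5 of 5 osteocyte, 5 of 5 osteoclast, 5 of 6 osteoblast, 3 of 6 fibroblast and tendon, 1 of 7 skeletal muscle, 1 of 5 endothelial, 0 of 5 adipocyte and 0 of 4 macrophage markers. They were also found for 1 of 4 erythroid, 2 of 5 neutrophil, 2 of 5 B cell and 3 of 4 T cell markers. Cartilage markers ran from -0.45 to 0.33 in controls and from -0.25 to 0.51 in unloaded animals. Adipocyte markers ran from -0.48 to 0.57 and from -0.45 to 0.30, and endothelial markers from -0.15 to 0.17 and from -0.24 to 0.24. No marker of these lists was called by limma. The part of these tissues in the enzyme values was not tested.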

How the data were processed

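Per the file headers, the authors' deposited files hold linear spot intensity from Agilent Feature Extraction (version 9.1.3.1, protocol GE1-v5_91_0806, design 014868), background-corrected and detrended inside each array without scaling across arrays. The deposited series matrix repeats this intensity (0.995 to 1.005 of the scanner values, linear, uncentred) and was an alternative. Its column medians spanned 261 (control 4) to 335 (control 1) in controls, 332, 303 and 306 being those of controls 2, 3 and 5. In the unloaded group they were 315, 269, 253, 311 and 291.

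Control spots and 97 marked gene spots were left out, spots of a probe averaged as log2, and each array's 75th percentile (637 to 903 intensity units) subtracted. Testing required a signal well above background in 4 or more animals of either group and values from 3 or more animals per group. Groups were compared with limma 3.58.1 (R 4.3.3, lmFit and eBayes, two-sided, no covariate, Benjamini-Hochberg over all probes, called below 0.05). The procedure was tested on simulated data with independent noise per probe and no slides. There it called 38% of log2 differences of 0.5 and 90% of those of 1, with 8 false calls. The changed probes were drawn at random, each with its own SD. The brighter Loxl2 probe, Lox and Plod2 had larger SDs than most genes, so these shares do not hold for them. Names came from a RefSeq list of assembly GRCm38.p6. The brightest tested probe stood for a gene. All enzymes are reported whatever their result, with the 4 smallest p of each further list, and Col1a1. P4hb was added after its value was seen. The enzymes and lists were chosen with earlier results of these data known. The number of arrays limits the precision.

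Animal numbers were not treated as pairs: deviations of same-numbered animals correlated between -0.14 and 0.18 over 38550 probes. Alternatives covered scaling, background correction, the dim-probe filter, the series matrix, slide, the replicate number, each array left out and, chosen after seeing the data, marked spots kept.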

Additional observations from a re-analysis of the deposited data

Results flagged for a closer look

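Control 5 stood apart from the other 4 controls in 3 enzyme genes, by a gap above the 95% limit of Dixon's test for 5 values. It read 0.21 for Lox, where the next control read 0.94, 0.63 for Plod2, where the next read 1.48, and -0.26 for Plod1, where the next read -0.077. Chance marks about 1 in 20 groups, and 3 of the 55 groups checked, where about 2.8 would be marked by chance, were marked. All 3 marks fell on the same animal. The groups share the same arrays, so their marks are not independent, and the 2 counts do not decide whether chance gave them. Control 5 is the only control on slide 2. The part of slide or of this animal in these values was not tested.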

How the results depend on the processing

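Over 19 alternatives, 0 enzyme probes and 0 genes of the further lists were called, and 15 of the 28 differences given by gene or probe never turned their sign. Over all probes the count called was 1, with 3 under slide as a fixed block and between 0 and 2 with an array left out (0 without control 4, control 5 or unloaded 4). With slide as a block, which only slide 2 informs, the median of the enzymes moved from -0.080 to 0.34. The median over all probes was 0.066 without that block and 0.0066 with it. Signs turned for Lox (0.69), Loxl2 (0.30 and 0.32 for its probes), P4ha1 (0.10 and 0.057), P4ha2 (0.34), Plod2 (0.68), Tmem38b (-0.094), Col5a2 (0.42), Ldha (-0.064) and Vegfa (0.032). The sign turned for 35% of all probes. As slide 2 has 1 control, slide and animal cannot be told apart there. Median scaling turned Loxl1 (-0.056) and Col1a1 (-0.017), and quantile normalization the brighter P4ha2 probe (0.014). With an array left out, the median of the enzymes ran from -0.16 (without unloaded 2) to -0.018 (without control 2), Loxl1 from -0.010 to 0.084 and the brighter P4ha2 probe from -0.13 to 0.067. The replicate block left the median of the enzymes at -0.080 and changed no call, and not every pair of same-numbered animals deviated together. With that block the SE fell for Lox (0.24 to 0.15), the brighter Loxl2 probe (0.31 to 0.23) and Plod2 (0.21 to 0.15). The SE fell less for other enzyme probes, and it rose for Plod1, both Loxl4 probes and the dimmer Plod3 probe.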
